A study of Drosophila melanogaster with 4 samples.

Results

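In Drosophila melanogaster CME-W1-Cl.8+ cells, 3 intervals named for the long genes Ten-m, pnt and shep each held a broad domain of Ser5P polymerase, that is, RNA polymerase II with phosphoserine 5 in its C-terminal heptads. The domains were chosen by position, because wide clusters had already been seen there. The intervals on FlyBase release 5 were 3L:22270000-22410000 for Ten-m, 3R:19105000-19180000 for pnt and 3L:5140000-5250000 for shep. Every enriched region (cluster) that overlapped an interval by at least 1 bp was taken. This gave 9 of 5091 clusters of ChIP replicate 1, 15 of 4876 of ChIP replicate 2 and 8 of 5309 of the series' combined list. Width and position thus chose the members, and the values below describe them without a test.

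CME-W1-Cl.8+, or Clone 8, is an established male line. Per the labels it comes from the dorsal mesothoracic disc, the wing primordium, at the third larval instar. The cells carried no labelled treatment or genetic change. There were 2 ChIP libraries (rabbit polyclonal antibody ab5131) and 2 input libraries from the same line, and no cluster list of the input was analysed here. Nothing in the labels says whether the replicates were separate cultures, and the depth of each library is unknown because the lists carry no read counts. The tissue of origin was not checked against marker genes, since the gene table used here follows release 6 and the lists release 5.

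Serine 5 of the heptad repeat is phosphorylated by the TFIIH kinase as transcription starts, and the mark is usually strongest near start sites and declines as polymerase moves into the gene. Ten-m encodes a teneurin, a large transmembrane protein of the cell surface known from synaptic partner matching. The pnt gene (pointed) encodes ETS-domain transcription factors that act downstream of the EGF receptor and Ras in many fly tissues, the wing disc among them, and it makes several isoforms from separate promoters. The shep gene (alan shepard) encodes an RNA-binding protein with RNA recognition motifs, known from work on the fly nervous system. The release 6 table listed all 3 symbols and placed each on the arm of its interval. In that table Ten-m lies next to IleRS, an isoleucine tRNA synthetase gene, on its low-coordinate side, pnt lies between bb8 and PolE1, and shep lies next to Srp54k. Other genes lie within all 3. The table records 5 inside Ten-m, 4 of them long non-coding RNA genes, 1 inside pnt and 1 inside shep. No cluster could be placed against an exon, a start site or a gene end on release 5, so the clusters are tied to the genes only through the names of the intervals. The release 6 table lists a shep gene longer than its interval, so the interval may not span the whole gene, and the covered share given for shep is that of the interval. Likewise, reads of a nested or neighbouring gene cannot be told apart from those of the named gene.

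The Ten-m domain was the widest cluster of every list and had no break in any. It ran from 22280135 to 22402160 in replicate 1, which is 122.026 kb, and from 22279837 to 22402119 in replicate 2, which is 122.283 kb. In the combined list it ran from 22279764 to 22402154. It was the only cluster in its interval, and it covered 87.2% of it in replicate 1 and 87.3% in replicate 2, a mean of 87.3 ± 0.130% (SD, n = 2). The uncovered rest lay entirely outside the domain. Of the bases of the combined cluster, 99.7% were covered in both replicates.

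The pnt domain was also a single cluster in each list. It ran from 19114068 to 19172803 in replicate 1, or 58.736 kb. Replicate 2 placed it from 19114235 to 19172825, or 58.591 kb, and the combined list from 19114128 to 19172826, or 58.699 kb. Its interval held 3 further clusters in each list, all outside the domain, and was covered to 84.1% in replicate 1 and 83.0% in replicate 2 (mean 83.6 ± 0.757%, SD, n = 2). Of these, a cluster below the domain was 1.815 kb wide in replicate 1 and 1.902 kb in replicate 2. A cluster just above the domain was 1.948 kb wide in replicate 1 and 1.413 kb in replicate 2. Both were weak, with scores of 0.35 and 0.44 in replicate 1 and of 0.36 and 0.28 in replicate 2. Scores are the authors' values on an unstated scale and were read only against other clusters of the same list. The last of the 3 entered the interval by under 1 kb at its upper end and was 8.03 kb wide in replicate 1 and 7.68 kb in replicate 2. It scored higher than the pnt domain itself, at 2.06 against 1.80 in replicate 1 and at 1.91 against 1.58 in replicate 2.

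The shep domain was continuous in the combined list and broken in both replicates, far more often in replicate 2. The combined cluster ran from 5147606 to 5242676, a width of 95.071 kb. Replicate 1 listed it as 2 clusters with 1 break, replicate 2 as 8 clusters with 7 breaks. Together the clusters of the interval covered 88.5% of it in replicate 1 and 83.3% in replicate 2 (mean 85.9 ± 3.69%, SD, n = 2). Of the bases of the combined cluster, 93.8% were covered in both replicates. The interval also held 2 small clusters below the domain in each list. One of them, 2.244 kb wide in replicate 1 and 2.224 kb in replicate 2, lay within 1 kb of the domain and scored 1.25 and 1.12. The other only touched the interval.

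**Figure D1:**
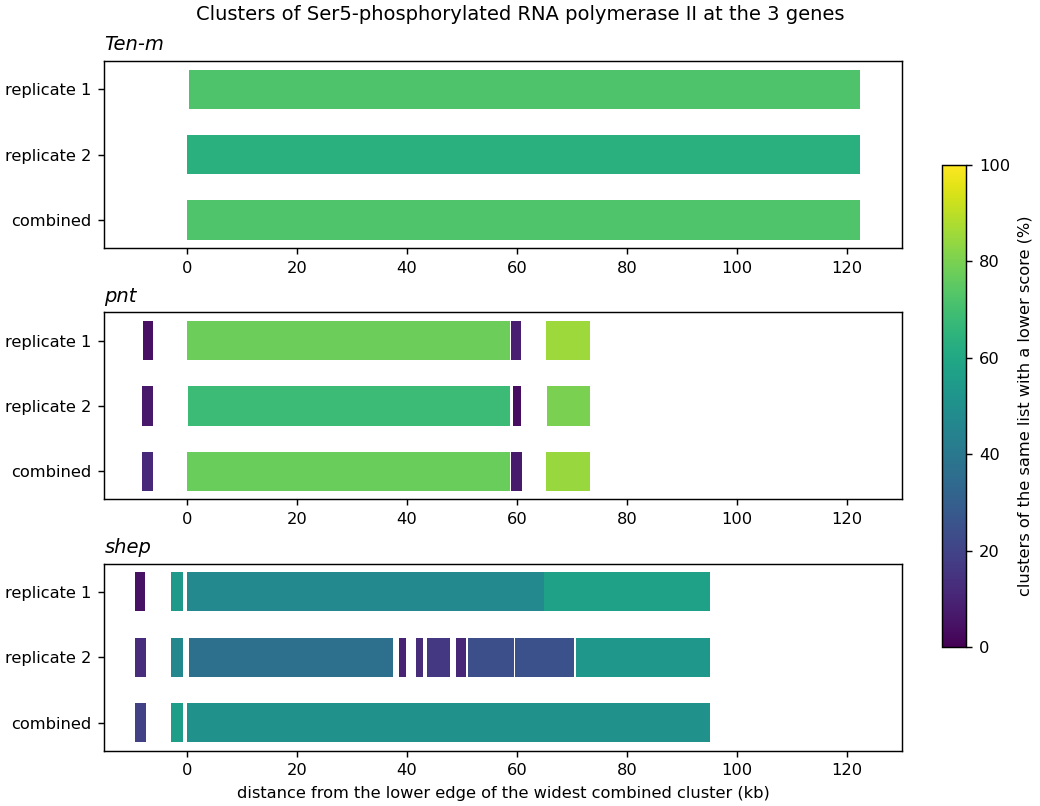
Clusters at Ten-m, pnt and shep in the lists of both replicates and in the combined list, drawn to scale against the distance in kb from the lower edge of the widest combined cluster. Colour gives the percentage of clusters of the same list with a lower score. Ten-m and pnt are 1 unbroken block in every list, whereas shep, whole in the combined list, is split into 2 clusters in replicate 1 and 8 in replicate 2.

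The breaks of shep lay in a stretch that began well inside the domain. Distances here run from the lower edge of the combined cluster. In replicate 2 the first break began at 37.4 kb and the last ended at 70.7 kb, so that a cluster of 37.066 kb below and one of 24.335 kb above framed 6 smaller ones. The 7 breaks were 1087, 1749, 636, 1140, 299, 258 and 409 bp wide and together took up 5.58 kb. The 4 on the low-coordinate side of this stretch were each wider than the other 3. Replicate 1 was covered across all 7 of them. Its own break was 44 bp wide, at 64.8 kb, and was covered in replicate 2, so no break was shared by the replicates. Across the whole of replicate 1, 53 of the 5078 gaps between neighbouring clusters were no wider than 44 bp, and the smallest was 0 bp, where clusters abutted.

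The score also varied along shep. In replicate 2 the first cluster scored 0.91, the 6 in the broken stretch between 0.42 and 0.68, and the last 1.26. The 4 clusters between 38.4 and 50.8 kb were the lowest, at 0.42, 0.47, 0.53 and 0.44. The share of replicate 2 clusters with a lower score was between 9.62% and 24.96% for each of the 6, against 36.7% for the first cluster and 53.2% for the last. Score varied with width in this list. Median scores were 0.39 up to 2 kb, 1.23 at 2 to 5 kb, 1.67 at 5 to 20 kb and 1.58 above. Within their own width class the 6 fell on both sides. The 3 of up to 2 kb scored above 59.8%, 70.8% and 64.1% of the other clusters of that width, whose median was 0.39. The 4.245 kb cluster scored above 5.50% of those of 2 to 5 kb, and those of 8.306 and 10.701 kb above 1.42% and 1.54% of those of 5 to 20 kb. In replicate 1 the first cluster, which reached 64.8 kb and so held 6 of the 7 breaks of replicate 2, scored 1.11, and the last scored 1.32. The cluster at the high-coordinate end was thus the highest of the domain in both replicates. Strand is not in the files or in the gene table, so which end of the domain is nearer a start site was not determined here.

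**Figure D2:**
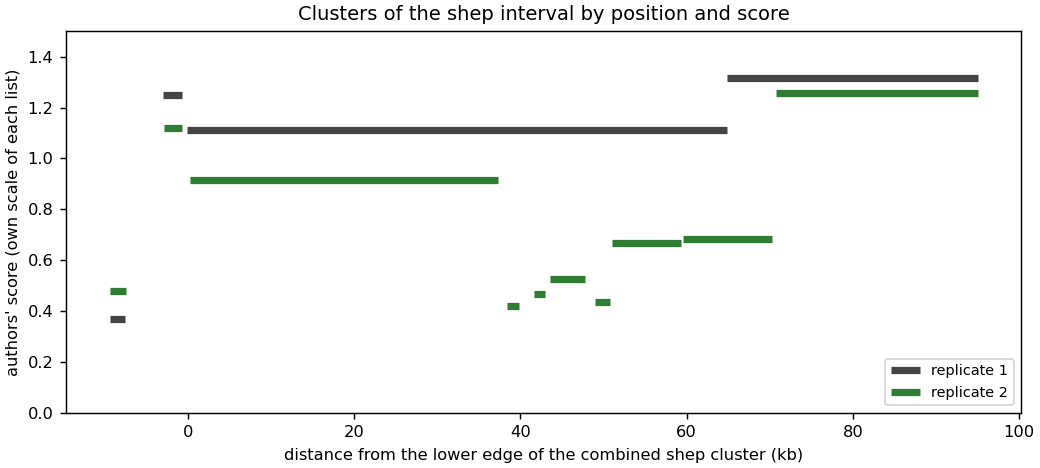
Each bar is a cluster of the shep interval, placed by its distance in kb from the lower edge of the combined cluster and by the authors' score, in replicate 1 and replicate 2 (own scale of each list). In both, the cluster at the high-coordinate end stands above the others of the domain, at 1.32 in replicate 1 and 1.26 in replicate 2.

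The domains were then set beside the other broad ones. The combined list held 65 clusters wider than 20 kb. Of these, 30 (46.2%) were a single cluster in replicate 1, 33 (50.8%) in replicate 2 and 21 (32.3%) in both. Ten-m and pnt were among the 21. Since the members were picked from wide clusters of these same lists, nothing is read from that count. In replicate 2 none of the 65 was in more pieces than shep, and the next was in 7. In replicate 1, however, 14 of the 65 were in more pieces than shep, with 5 at most. Shep is also the 3rd widest of the 65, at 95.071 kb against a median of 25.5 kb. Per 10 kb of the combined cluster it had 0.841 pieces in replicate 2, against a median of 0.483, and 23 of the 65 had more. In replicate 1 it had 0.210 per 10 kb, and 57 of the 65 had more. By covered share, 22 of the 65 were less covered than shep (93.8%) in replicate 2 and 61 were less covered than it (99.9%) in replicate 1. Replicate 2 listed more pieces than replicate 1 for 21 of the 65 and fewer for 18.

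Among these 65, whole domains lay mostly at the higher scores. Of the 32 with combined-list scores above their median, 18 were single in both replicates, against 3 of the other 33. The 18 include Ten-m and pnt, which were picked from wide clusters of these same lists. The 2 score groups differed in width too, with medians of 24.1 kb for the 32 and 29.2 kb for the 33. The score of shep, 1.04, was the 57th of the 65, whereas pnt, at 1.68, was 22nd and Ten-m, at 1.54, was 32nd. None of the 8 wide clusters that scored below shep was single in both replicates, and their median width was 33.8 kb. In replicate 2 these 8 were in 1 to 7 pieces, with a median of 4. Score and pieces come from the same reads, and the part of depth, score, width or caller settings in the breaks was not tested.

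**Figure D3:**
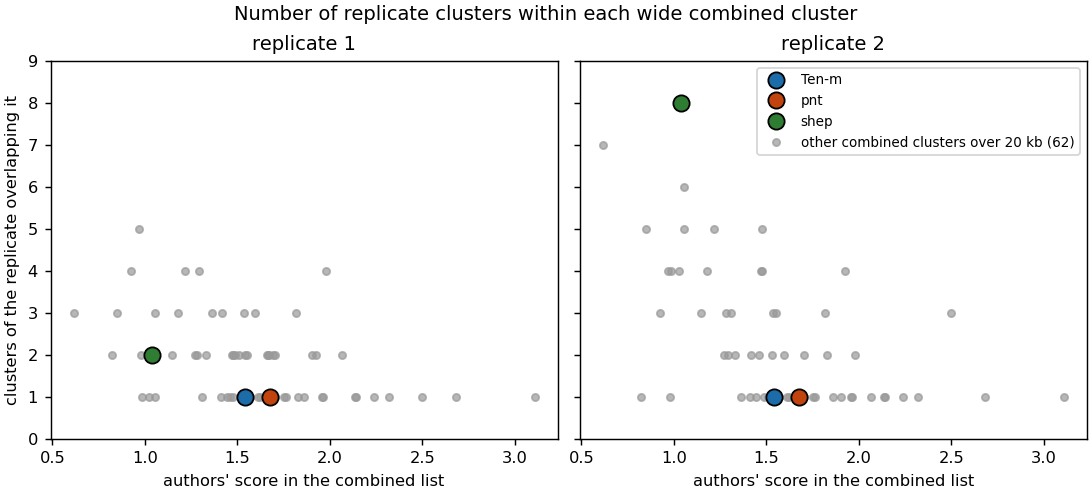
For each of the 65 combined clusters wider than 20 kb, the number of replicate clusters that overlap it is plotted against its combined-list score, for replicate 1 and replicate 2. Ten-m and pnt sit at 1 piece in both panels. The shep domain, at a score of 1.04, is in 2 pieces in replicate 1 and 8 in replicate 2.

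The replicates placed the outer edges of all 3 domains within 351 bp of each other, and the upper (high-coordinate) edge was the closer one each time. At Ten-m the replicates differed by 298 bp at the lower edge and by 41 bp at the upper. At pnt they differed by 167 and 22 bp. At shep, where the outermost of several clusters gave the edge, they differed by 351 and 10 bp. The lower-edge difference came to between 0.243% and 0.369% of the domain's width. With the combined list included, the upper edges spanned 41 bp at Ten-m, 23 bp at pnt and 15 bp at shep, and the lower edges 371, 167 and 351 bp in the same order.

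The lower edges differed by more than those of most other clusters, and the upper edges by less. Among the 3927 clusters that overlapped one to one between the replicates, the median difference was 59 bp at the lower and 55 bp at the upper edge. A smaller difference than that of shep, pnt and Ten-m at the upper edge was seen in 13.3%, 26.6% and 41.4% of these pairs. At the lower edge it was seen in 86.3%, 74.9% and 84.2%. In 22 pairs both clusters were wider than 20 kb, and there the medians were 112.5 bp at the lower and 60 bp at the upper edge. Of these 22, 17 differed by less than Ten-m at the lower edge, 14 by less than pnt and 20 by less than shep. The lower edge differed more than the upper in 12 of these 22 pairs (54.5%) and in 51.3% of all pairs. The list of the 22 includes Ten-m and pnt. The shep domain is in neither set of pairs, because its clusters do not overlap one to one. Its edges are those of the outermost clusters, so its place among the pairs is a looser comparison. All edges of the combined list fell on even coordinates, whereas between 49.5% and 50.8% of those of the replicates did, so combined edges are resolved to 2 bp.

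**Figure D4:**
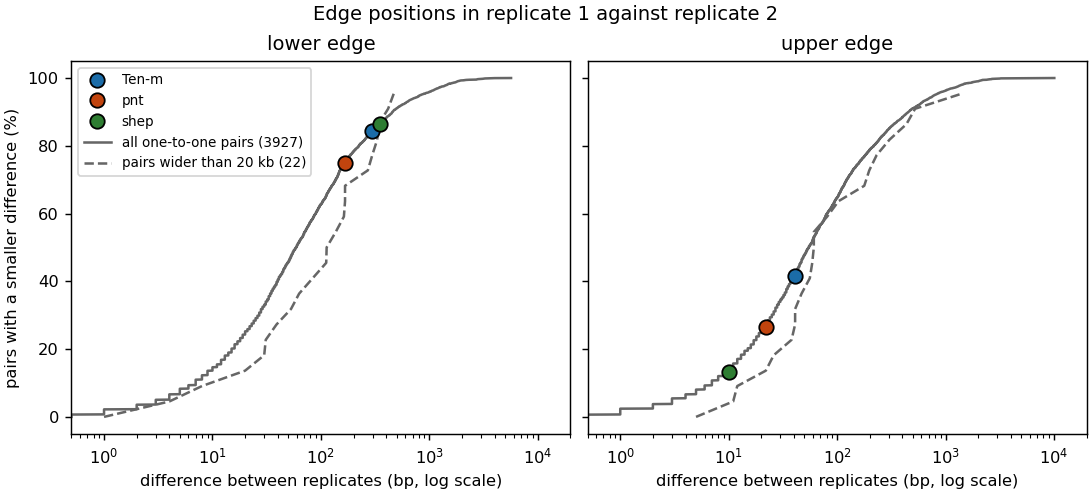
Difference in bp between the replicates at the lower and the upper edge (log scale) against the percentage of one-to-one cluster pairs with a smaller difference. Lines show all 3927 pairs and the 22 pairs wider than 20 kb. The 3 genes lie at 167 to 351 bp at the lower edge and at 10 to 41 bp at the upper.

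The surroundings of the domains differed from side to side. Above Ten-m no cluster was listed for 146.477 kb in replicate 1 and 146.718 kb in replicate 2. Only 146 of the 5078 gaps of replicate 1 and 140 of the 4863 of replicate 2 were wider. On its lower side the next cluster lay 18.3 and 18.0 kb away, was 3.32 and 3.84 kb wide, and scored 2.51 and 2.13, above the Ten-m domain itself.

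The shep domain also had an empty stretch on its high-coordinate side, of 27.376 kb in replicate 1 and 27.477 kb in replicate 2. This stretch was wider than 79.5% of gaps in replicate 1 and 78.1% in replicate 2. Still, 1040 of the 5078 gaps of replicate 1 and 1065 of the 4863 of replicate 2 were wider. The cluster beyond this stretch was among the weakest of each list, with scores of 0.19 and 0.11. On the lower side the next cluster was only 643 bp away in replicate 1 and 953 bp in replicate 2. Over the 50 kb beyond the domain, clusters covered 3.58% above shep and 18.7% below it in replicate 1, and 2.99% above and 17.6% below in replicate 2. The whole arm 3L was covered to 14.2% in replicate 1 and 13.9% in replicate 2. At pnt the nearer cluster lay on the high-coordinate side. The next cluster above was 129 bp away in replicate 1 and 573 bp in replicate 2, and the next below 6.187 and 6.302 kb away. That lower gap was of middling size, wider than 52.3% of gaps in replicate 1 and 49.7% in replicate 2. The 50 kb above pnt were covered to 19.96% and 18.2%, the 50 kb below to 11.9% and 12.7%, against 16.1% and 16.0% for arm 3R.

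By score Ten-m and pnt stood in the middle range of wide clusters and shep near the bottom. All 3 lay far below the strongest cluster of each replicate, which was under 5 kb wide. In replicate 1 the Ten-m cluster scored 1.65 and pnt 1.80, and the widest shep cluster, of 64.896 kb, scored 1.11. In replicate 2 they scored 1.46, 1.58 and, for a shep cluster of 37.066 kb, 0.91. These values ranked 1423rd, 1143rd and 2689th of 5091 in replicate 1, and 1774th, 1545th and 3086th of 4876 in replicate 2. The highest score of replicate 1 was 4.56, at a cluster of 2.775 kb, and that of replicate 2 was 4.44, at one of 4.903 kb. Both replicates gave the order pnt, Ten-m, shep.

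Narrow clusters were taken as those up to the median width of their list, 2.53 kb in replicate 1 and 2.60 kb in replicate 2. The Ten-m cluster scored above 84.5% and 78.1% of them, pnt above 87.2% and 80.3%, and the widest shep cluster above 69.4% and 58.8%. The narrow clusters had median scores of 0.74 and 0.75 and reached 3.68 and 3.90. These shares depended on where narrow ends. Clusters up to 2 kb were almost all weak, and Ten-m scored above 99.2% of them in replicate 1 and 98.3% in replicate 2, pnt above 99.3% and 98.4%, and shep above 98.0% and 95.7%. Clusters of 2 to 5 kb had medians of 1.25 and 1.23, and shep scored above only 41.6% and 30.9% of them, against 70.8% and 63.1% for Ten-m and 76.9% and 67.9% for pnt. Clusters of 5 to 20 kb had medians of 1.71 and 1.67. Ten-m scored above 46.9% and 36.0% of these, pnt above 55.9% and 43.5%, and shep above 13.4% and 7.23%.

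Among the other clusters wider than 20 kb, Ten-m stood near the middle in replicate 1, above 23 of 44, and lower in replicate 2, above 14 of 45. The pnt cluster scored above 30 of 44 and 23 of 45. The widest shep cluster scored above 1 of 44 in replicate 1 and 3 of 45 in replicate 2. These others include a second shep cluster that scored higher. It had 1.32 at 30.174 kb in replicate 1 and 1.26 at 24.335 kb in replicate 2. In replicate 2 that second cluster scored above 15.6% of the other wide clusters, against 6.67% for the widest. The clusters next to Ten-m in width scored less, 1.28 at 96.544 kb in replicate 1 and 1.12 at 83.084 kb in replicate 2. Next below pnt in width stood clusters of 56.399 kb in replicate 1 and 49.792 kb in replicate 2, with scores of 1.60 and 1.37.

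**Figure D5:**
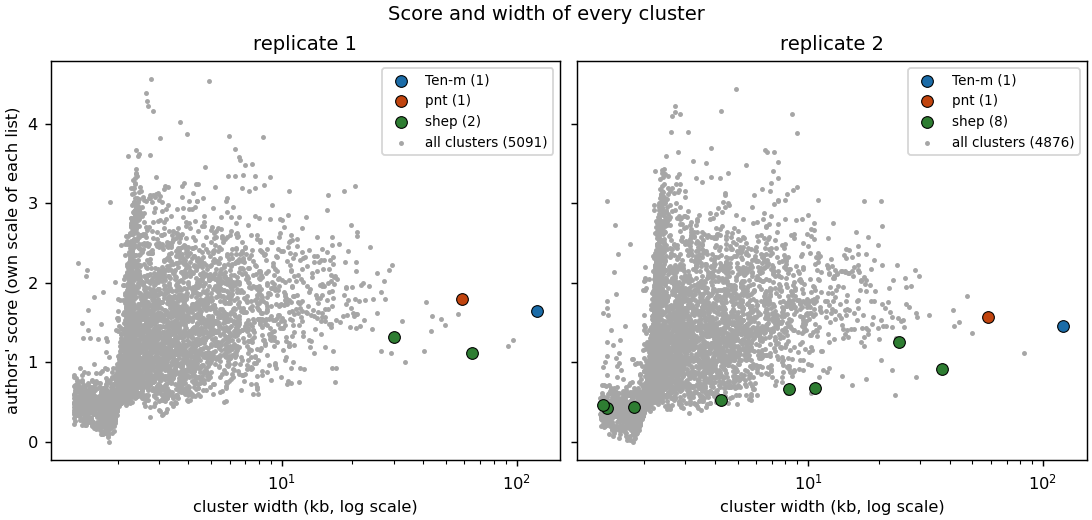
Authors' score against cluster width (log scale) for every cluster of replicate 1 and replicate 2, with the clusters of Ten-m, pnt and shep in colour. At the wide end, Ten-m and pnt score 1.65 and 1.80 in replicate 1, and 1.46 and 1.58 in replicate 2. The 2 shep clusters of replicate 1 score 1.11 and 1.32, and the 8 of replicate 2 score from 0.42 to 1.26. Each list has its own scale.

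The 3 domains together covered 275.708 kb in replicate 1 and 270.069 kb in replicate 2, which is 1.43% and 1.44% of all bases in clusters. They did so with 4 clusters in replicate 1 (0.0786% of the list) and 10 in replicate 2 (0.205%). Ten-m alone held 3.50% and 3.58% of the covered bases of arm 3L, shep 2.73% and 2.61% of them, and pnt 1.31% and 1.32% of those of 3R. None of the regions marked as depleted lay in the 3 intervals in any list (0 in each). The intervals were picked for their enriched clusters, which left little room for a depleted region. The number of depleted regions per list is not given here, so nothing is read from this.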

How the data were processed

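ChIP-seq libraries of serine 5 phosphorylated RNA polymerase II were made, per the labels' protocols, from cells fixed with 1.8% formaldehyde for 10 min, with an antibody incubation of 15 h. The submitters' processing notes name Bowtie 0.12.7 as the aligner. The deposited lists give each region a score set by the authors and a position, which per the file headers is on FlyBase release 5. How regions were called, thresholded and joined, and how input was used, is not given in the sources consulted. Depth can change the number, width and breaks of clusters without a change in occupancy, and it is unknown, so no interval or detection limit was given. The lists of the 2 ChIP libraries and the combined list were used. The combined list pools the samples of the series, so its agreement with the replicates is not an independent observation.

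Groups and replicate numbers came from the sample titles. Widths count both end positions. A domain was the widest combined cluster of an interval with the replicate clusters at least 50% inside it. Breaks are gaps between these. Flanks were 50 kb. Coverage, pairing and joining were tested on simulated lists with known answers. Software was matplotlib 3.10.9, pandas 2.3.3, numpy 2.4.6 and Python 3.11.15.

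The members, comparisons and width limits were chosen with earlier results of these data known. By rule clusters were given a gene name only at the 3 genes, and others were described as those over 20 kb, next in width or next in position. Neighbouring genes were named from the release 6 table, without values. Planned gene and marker lists got no values, because the annotation at hand follows release 6. Alternatives changed the interval bounds, the overlap rule, joining of gaps, a score minimum, the definition of narrow, the arms used, the edge definition and the list or replicate used.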

Additional observations from a re-analysis of the deposited data

How the results depend on the processing

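Of 75 alternative values for 12 results, 54 stayed within a set margin and 21 moved by more. The margin was the spread between replicates or, for edges, between the edges (numbers of clusters: within 1.5 times). Shares, counts and distances have no sign, so none could reverse. With n = 2, leaving out a replicate moves a mean by less than the SD, so coverage and score shares had to stay. Ten-m is 1 cluster inside its interval, so taking whole clusters or joining gaps could not change its coverage. The tally of 54 is therefore no measure of robustness. Intervals widened by 10 kb on each side were covered to 77.5% (Ten-m), 73.7% (pnt) and 75.8% (shep), since bases outside the domains were added, and Ten-m then held 2 clusters. With clusters in the upper 50% by score alone, coverage was 78.8% at pnt (2 clusters) and 25.8% at shep (1.5 clusters), as others were removed. In the combined list coverage was 87.42% at Ten-m and 84.4% at pnt, shep held 3 clusters, and its widest cluster scored above 72.5% of narrow ones. Joining gaps of 1 kb or less left 3.5 clusters at shep, by construction. Edges of the widest shep cluster alone differed by 13915 bp on average, because the replicates split it differently. With narrow clusters up to the lower quartile of width, Ten-m scored above 98.7%, pnt above 98.9% and shep above 95.1% of them; with those up to 5 kb, above 73.5%, 77.8% and 48.8%.

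Leaving out each replicate gave 87.2 to 87.3% coverage at Ten-m, 83.0 to 84.1% at pnt and 83.3 to 88.5% at shep. Clusters numbered 1 to 1 at Ten-m, 4 to 4 at pnt and 4 (without replicate 2) to 10 (without replicate 1) at shep. Shares of narrow clusters scoring lower were 78.1 to 84.5%, 80.3 to 87.2% and 58.8 to 69.4% for Ten-m, pnt and shep. The mean of 7 clusters at shep thus describes neither replicate. Where construction does not set a value, the cause was not tested. No paired analysis was possible because only the ChIP libraries have lists here, and no result comes from a test. No value here has a depth behind it.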
